A study of Rattus norvegicus with 20 samples.

Results

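Surfactant is made, stored and secreted by alveolar type II cells, and 9 genes that carry out this work were followed by symbol: the surfactant protein genes Sftpa1, Sftpb, Sftpc and Sftpd, the lamellar body genes Abca3 and Lamp3, the protease gene Napsa, the phosphate transporter gene Slc34a2 and the lipid enzyme gene Lpcat1. Of the 9 symbols, 8 were found among the 17337 gene symbols of the count table, and Abca3 was not analysed here. Of these 8, 7 passed the filter on low counts, which left 8320 genes for testing, and Slc34a2 did not.

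Surfactant is a film of phospholipid and protein that lowers surface tension in the alveoli. Its lipid, chiefly dipalmitoylphosphatidylcholine, is packed with the small hydrophobic proteins SP-B and SP-C into lamellar bodies, which are lysosome-related organelles that empty into the airspace when the cell is stretched or stimulated. SP-A and SP-D are larger, water-soluble collectins that bind sugars on microbes. Type II cells placed in culture on a stiff surface flatten and lose much of their surfactant gene expression while markers of type I cells appear.

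The cells were primary type II cells of Sprague-Dawley rats, grown for 4 days on fibronectin-coated silastic membranes until they formed monolayers with type I-like features. S_PI cells received 1 µM GSK2606414, an inhibitor of the endoplasmic reticulum stress kinase PERK, for 18 h and were then stretched for 6 h in cycles of 25% area change at 15 per min. S cells had the same stretch after 18 h in 0.01% DMSO. NS_PI cells were unstretched with 1 µM of the inhibitor, for which the treatment protocol gives 24 h and the series text 18 h of pretreatment, and NS cells were unstretched in 0.01% DMSO for 24 h. DMSO in the inhibitor groups is not recorded in the labels, so the vehicle match was not tested. Each group had 5 libraries, 1 for each of 5 animals, and each library pooled RNA from 4 monolayers of its animal. The replicate number of the titles was taken to mark the same animal in all 4 groups. An animal here also stands for its cell isolation, and the effects of both cannot be told apart.

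RNA was read from the 3′ end, and each library held 999209 to 3131541 gene counts. Levels are given as CPM, the count scaled to the size of its library after TMM correction. A 3′ end library yields about 1 fragment per transcript, so CPM was compared between genes without division by length. Per library, 35.55 to 57.69% of the alignments were left out of the gene counts as not unique. A further 16.19 to 24.55% fell outside any annotated gene. Levels of different genes are therefore those of uniquely assigned reads, and what each gene lost was not tested. A count of 3, taken as the detection floor, corresponded to 1.07 to 3.04 CPM depending on the library. It covers counting error only. The defining type I markers Pdpn, a surface glycoprotein, and Ager, the receptor for advanced glycation end products, averaged 1819 and 497 CPM over the 20 libraries, while Aqp5, the type I water channel, averaged 3.02 CPM and was at 0 in at least 1 library of each group. Markers of other cells were present too. The 18 macrophage and leukocyte markers summed to 3171 to 14749 CPM in S_PI, 2485 to 15711 CPM in S, 1883 to 10907 CPM in NS_PI and 1885 to 11589 CPM in NS, and lysozyme (Lyz2), which type II cells also express, made up 63.3% of their mean sum. The leukocyte antigen gene Ptprc averaged 99.6 CPM, and Marco, a receptor of alveolar macrophages, had reads in 1 library only. The 13 fibroblast and smooth muscle markers summed to 4008 to 14332 CPM in S_PI, 3981 to 12469.9 CPM in S, 3261 to 10687 CPM in NS_PI and 3265 to 7532 CPM in NS, mostly from the collagen gene Col1a1. The 14 airway markers, of which 11 were in the table, were 97.0% Scgb1a1, the club cell secretoglobin, at a mean of 1460 CPM. Of 10 endothelial markers, Cdh5 and Cldn5 were at 0 in every library.

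The promoter windows of genes from 3 arms of the system are shown because the lung factor NKX2-1 drives surfactant genes and its gene was well expressed here. The windows are those of Sftpa1 for the collectins, Sftpb for the hydrophobic proteins and Lpcat1 for lipid. They are taken from RefSeq, build GRCr8, and end at the base before the gene record begins. For Sftpa1 and Lpcat1 that is the start used in the promoter table, while for Sftpb the table uses a start 93 bases inside the gene record, so its printed stretch is shorter and stops 93 bases before that start. The Sftpa1 window is chr16:17042014-17042263 on the plus strand, the Sftpb window chr4:105917338-105917494 on the plus strand, and the Lpcat1 window chr1:31644947-31645196 on the minus strand. Capitals mark the 4-letter NKX2-1 core CAAG or its reverse complement CTTG, read 5′ to 3′.
Sftpa1: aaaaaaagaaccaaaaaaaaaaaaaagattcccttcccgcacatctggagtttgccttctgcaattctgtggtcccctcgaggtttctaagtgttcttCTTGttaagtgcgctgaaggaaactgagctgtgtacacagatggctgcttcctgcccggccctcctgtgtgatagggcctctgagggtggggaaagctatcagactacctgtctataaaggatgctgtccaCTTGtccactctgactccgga
Sftpb: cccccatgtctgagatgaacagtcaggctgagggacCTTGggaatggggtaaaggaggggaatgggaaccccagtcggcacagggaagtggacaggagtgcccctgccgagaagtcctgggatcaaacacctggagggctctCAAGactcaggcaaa
Lpcat1: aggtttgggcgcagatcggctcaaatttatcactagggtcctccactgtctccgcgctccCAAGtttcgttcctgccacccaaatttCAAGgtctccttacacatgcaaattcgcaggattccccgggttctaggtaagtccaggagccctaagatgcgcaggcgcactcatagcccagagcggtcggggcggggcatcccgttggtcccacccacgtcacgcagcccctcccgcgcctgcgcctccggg
Each printed window held 2 matches to this core. Over the full 300-base windows, which run past the gene start, Sftpa1 and Lpcat1 had 2 matches and Sftpb 4, beside a median of 2 and a share of 91.0% with at least 1 match among 33469 promoters, so a match does not set these genes apart. The FOXA core TGTTT, searched on both strands, occurred in the window of Sftpb and in neither of the other two, beside 51.9% of all promoters. The C/EBP pattern TTNNGNAA occurred in that of Sftpa1, beside 41.3% of all promoters. RefSeq promoter entries existed for 6 of the 9 genes. The factors themselves were expressed in all libraries: Foxa2 averaged 455 CPM, Nkx2-1 172 CPM and Cebpa 96.5 CPM.

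Expression of the 8 genes spanned a wide range. Napsa, the aspartic protease that cleaves the SP-B precursor, was the highest at 190.3 ± 89.1 CPM (SD over 20 libraries), above 87.2% of tested genes. Lamp3, a membrane protein of lamellar bodies, followed at 123 ± 97.0 CPM, and Sftpd at 39.9 ± 24.6 CPM stood near the middle of all tested genes. Lower still were Lpcat1, which makes dipalmitoylphosphatidylcholine from its lyso form, at 19.8 ± 8.33 CPM, Sftpa1 at 12.1 ± 5.02 CPM, Sftpc at 11.9 ± 15.0 CPM and Sftpb at 7.30 ± 5.53 CPM. The genes of the hydrophobic proteins SP-B and SP-C, which a fresh type II cell expresses strongly, thus exceeded only 9.72% (Sftpb) and 19.8% (Sftpc) of tested genes. Slc34a2, the sodium-phosphate cotransporter of the type II cell surface, had 38 counts in all and was at or under the floor in 16 of 20 libraries. Within a library this order mostly held: Napsa exceeded Lamp3 in 18 of 20 libraries, Lamp3 exceeded Sftpd in 20, and Sftpd exceeded Lpcat1 in 15. Lpcat1 exceeded Sftpa1 in 16 libraries, Sftpa1 exceeded Sftpc in 15, and Sftpb exceeded Slc34a2 in 16. Sftpc and Sftpb could not be ordered, with Sftpc above Sftpb in 10 of 20 libraries. Napsa was below Lamp3 only in NS and NS_PI of animal 1. Over the 20 libraries, the mean difference in log2(CPM + 1) exceeded its SD for the steps from Lamp3 to Sftpd (1.52 ± 0.55) and from Sftpb to Slc34a2 (1.79 ± 1.66). In the other 5 steps it was smaller than its SD. The libraries share animals, so this describes the spread and does not test whether 2 genes differ.

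**Figure D1:**
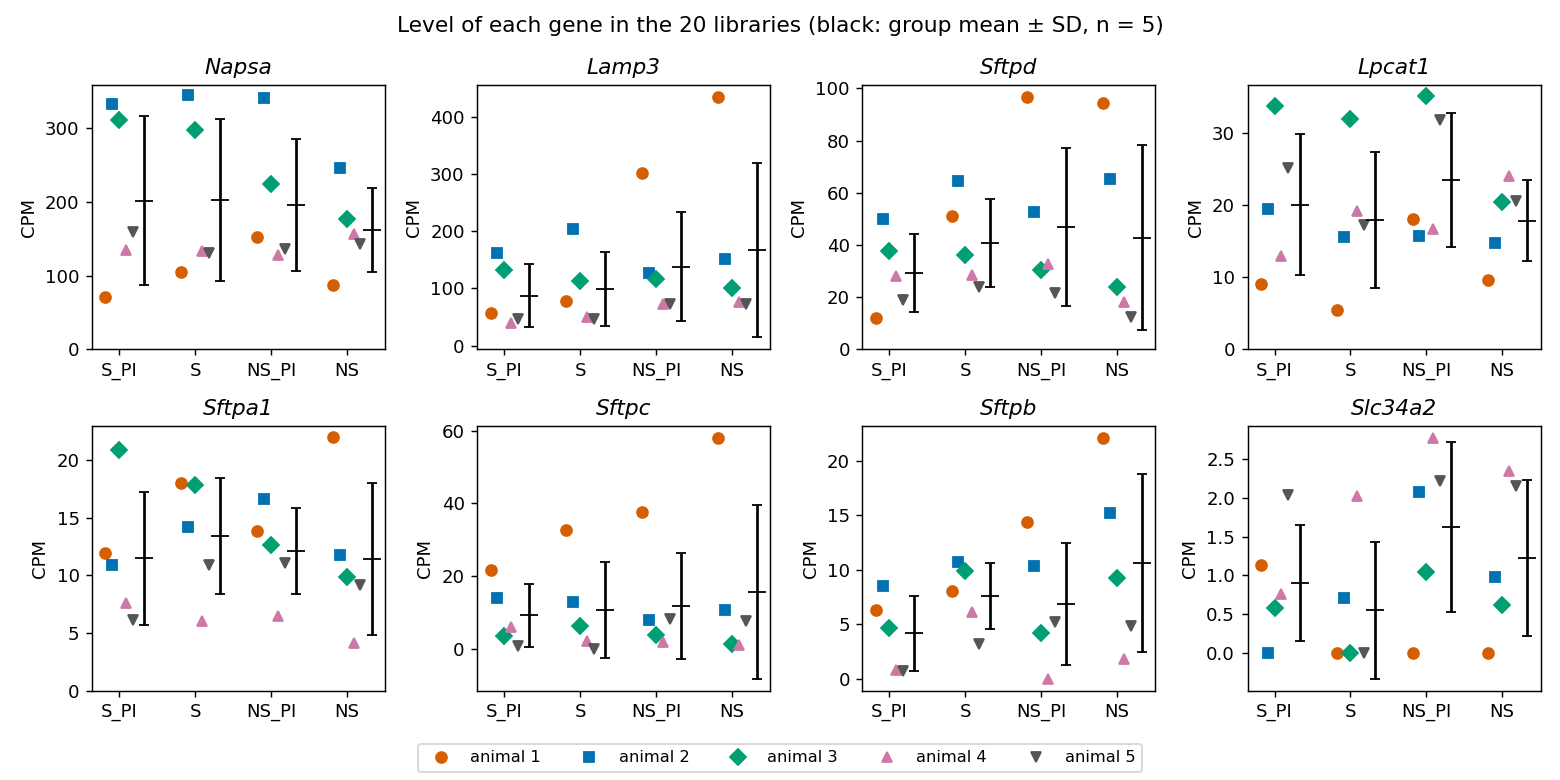
CPM of each gene (vertical axis, linear, 1 panel per gene) in the 20 libraries, with S_PI, S, NS_PI and NS from left to right, 1 symbol per animal and the group mean ± SD (n = 5) in black. Animal 2 is the highest for Napsa and animal 1 the highest for Sftpc in all 4 groups, and animal 1 stands far above the others for Lamp3 and Sftpc in NS_PI and NS.

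The collectin genes differed between animals, and their levels in the 4 groups overlapped. Sftpa1, whose protein binds microbes and surfactant lipid, had 11.98, 10.9, 20.9, 7.59 and 6.11 CPM in animals 1 to 5 of S_PI and 18.0, 14.2, 17.8, 6.08 and 10.9 CPM in S. It had 13.9, 16.6, 12.6, 6.47 and 11.1 CPM in NS_PI and 22.1, 11.8, 9.88, 4.11 and 9.18 CPM in NS. All 4 groups overlapped, and animal 4 was the lowest in S, NS_PI and NS. Sftpd had 11.98, 49.8, 37.7, 28.1 and 19.0 CPM in S_PI, 51.1, 64.3, 36.3, 28.4 and 23.7 CPM in S, 96.8, 52.7, 30.5, 32.8 and 21.4 CPM in NS_PI, and 94.2, 65.3, 24.1, 18.2 and 12.4 CPM in NS. Animal 1 was the highest in both unstretched groups and the lowest in S_PI.

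The hydrophobic protein genes were near the detection floor in several libraries. Sftpc had 21.7, 14.0, 3.48, 6.07 and 0.679 CPM in animals 1 to 5 of S_PI, 32.6, 12.8, 6.16, 2.03 and 0 CPM in S, 37.5, 7.89, 3.68, 1.85 and 8.13 CPM in NS_PI, and 57.9, 10.8, 1.24, 1.17 and 7.56 CPM in NS. Animal 1 was the highest in every group, and 5 of 20 libraries held 3 counts or fewer. Sftpb, whose product is required for lamellar body assembly and for breathing at birth in mice and humans, had 6.27, 8.50, 4.65, 0.759 and 0.679 CPM in S_PI and 8.01, 10.7, 9.85, 6.08 and 3.20 CPM in S. In unstretched cells it had 14.4, 10.4, 4.20, 0 and 5.18 CPM in NS_PI and 22.1, 15.2, 9.26, 1.76 and 4.86 CPM in NS. Animals 1 and 2 were the 2 highest in S_PI, NS_PI and NS, and 4 of 20 libraries were at or under the floor.

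The lamellar body membrane gene Lamp3 had 56.5, 162, 132, 39.5 and 46.8 CPM in animals 1 to 5 of S_PI and 77.1, 204, 112, 50.6 and 46.8 CPM in S. Its levels were 302, 126, 116, 73.1 and 72.5 CPM in NS_PI and 434, 152, 101, 75.7 and 72.4 CPM in NS. Animal 1 was the highest in both unstretched groups and the third in both stretched ones. Napsa had 71.3, 332, 310.1, 135 and 159 CPM in S_PI, 105, 344, 297, 134 and 130.1 CPM in S, 151, 339.9, 224, 128 and 136 CPM in NS_PI, and 87.8, 246, 177, 157 and 143 CPM in NS. Here animal 2 was the highest in every group, and animal 1 was the lowest in S_PI, S and NS. Lpcat1 had 9.13, 19.4, 33.7, 12.9 and 25.1 CPM in S_PI, 5.51, 15.6, 32.0, 19.2 and 17.3 CPM in S, 18.1, 15.8, 35.2, 16.6 and 31.8 CPM in NS_PI, and 9.65, 14.7, 20.4, 24.1 and 20.5 CPM in NS. Animal 3 was the highest in 3 groups and animal 1 the lowest in 3. Slc34a2 ranged from 0 to 2.04 CPM in S_PI, 0 to 2.03 CPM in S, 0 to 2.77 CPM in NS_PI and 0 to 2.35 CPM in NS, and no difference in it was detectable at this depth.

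All 7 tested genes differed between animals at an adjusted p below 0.05 (edgeR quasi-likelihood F test of the animal terms, Benjamini-Hochberg over 8320 genes), beside 47.4% of all tested genes. The adjusted p was 4.48e-06 for Napsa, 6.69e-06 for Sftpc, 0.000552 for Sftpb, 0.00125 for Lamp3, 0.00132 for Lpcat1, 0.00298 for Sftpd and 0.00405 for Sftpa1. The call for Sftpa1 was lost without animal 4 (adjusted p = 0.127; range over the alternatives 0.000806 to 0.127). Between the animal with the highest mean over its 4 libraries and the animal with the lowest, the fold was 13.5 for Sftpc, 5.90 for Sftpb, 3.65 for Lamp3, 3.32 for Sftpd, 3.04 for Napsa, 2.86 for Lpcat1 and 2.72 for Sftpa1. The 4 surfactant protein genes and Lamp3 had their highest mean in animal 1 and their lowest in animal 4 or 5. Napsa, highest in animal 2, and Lpcat1, highest in animal 3, both had their lowest mean in animal 1. In bulk RNA, fewer cells of a type and less RNA per cell cannot be told apart.

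The animals also differed in markers of other cell types. All 17 tested type I markers, 15 of 15 macrophage markers, 8 of 8 fibroblast markers and 5 of 5 airway markers differed between animals, beside 47.4% of all tested genes. So did 16 of 20 tested type II markers outside the list of members, 10 of 12 transitional cell markers and 1 of 2 endothelial markers. Nearer the share of all genes were 18 of 35 processing and traffic genes, 9 of 18 secretion and uptake genes, 22 of 35 lipid synthesis genes and 16 of 24 transcription factors. Summed type I markers averaged 9656, 11206, 8881, 3659 and 4322 CPM in animals 1 to 5, so the 2 animals with the lowest sums were also those with the lowest Sftpa1, Sftpb, Sftpd and Lamp3. Summed macrophage markers averaged 2356, 8572, 9695, 13239 and 4833 CPM, lowest in animal 1, and summed fibroblast markers 6619, 3629, 4544, 10831 and 10293 CPM, highest in animals 4 and 5. Their part in the differences between animals was not tested.

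As a share of the variance of log2 CPM between the 20 libraries, animal accounted for 84.5% in Napsa, 74.9% in Sftpc, 70.7% in Sftpa1, 67.9% in Lpcat1, 64.1% in Sftpb, 52.6% in Lamp3 and 49.4% in Sftpd. The median over all tested genes was 37.5%. Stretch accounted for 13.1% in Lamp3, equal to the median of all genes (13.1%), and for 0.369 to 2.39% in the other 6. Inhibitor accounted for 13.2% in Sftpb, 5.05% in Lpcat1 and under 1% in the other 5, beside a median of 1.22%. Differences in the stretch effect between animals took 31.5% in Lamp3, 28.1% in Sftpd and 19.5% in Sftpc, beside a median of 13.5%. Animal and stretch by animal have more terms than stretch or inhibitor, so random spread alone gives them a larger share. Each share is therefore to be read against its own median over all tested genes, not against the shares of the other parts.

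**Figure D2:**
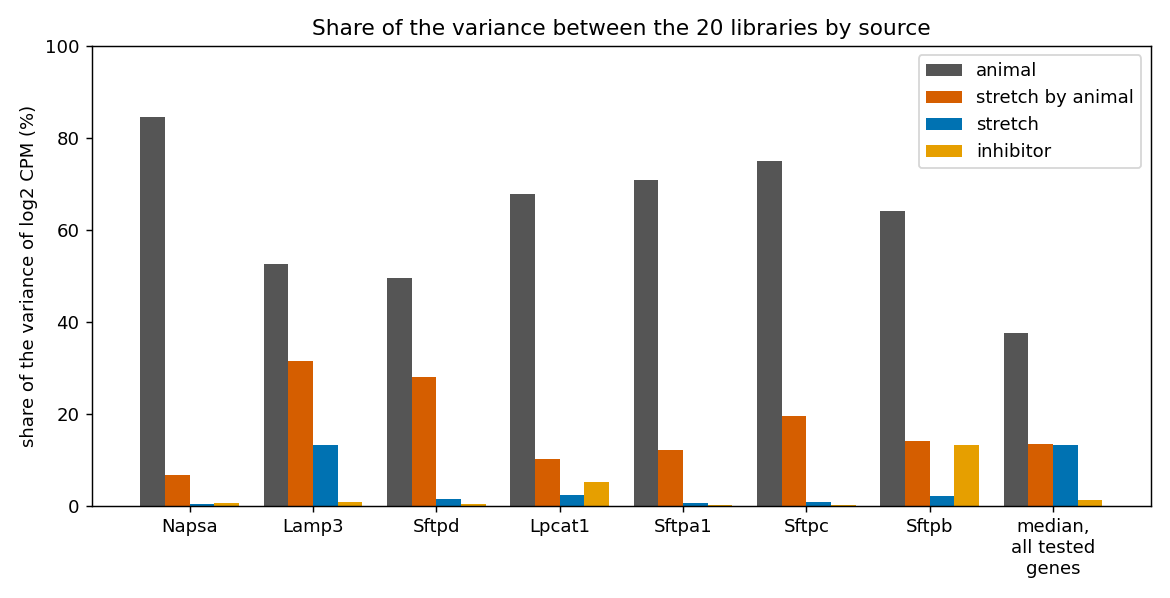
Share of the variance of log2 CPM between the 20 libraries (percent, vertical axis) that falls to animal, to stretch effects that differ by animal, to stretch and to inhibitor, for the 7 tested genes and for the median of all tested genes. Animal is the tallest bar for every gene, from 49.4% in Sftpd to 84.5% in Napsa. Animal and stretch by animal have more terms than stretch or inhibitor, so bar heights are not directly comparable between these parts.

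Whether cyclic stretch changes these genes on average was read from S against NS. None of the 7 tested genes was called in edgeR, beside 24.9% of all tested genes, and none had an unadjusted p below 0.05. DESeq2 called none as well. The size of the intervals differs between genes. Napsa had a fold of 1.17 in S over NS with a 95% confidence interval of 0.905 to 1.51 (log2 change 0.22 ± 0.18, SE, adjusted p = 0.374, higher in 3 of 5 animals). Lamp3 had a log2 change of -0.64 ± 0.35 (adjusted p = 0.180, lower in 3 of 5 animals). With 1 animal left out, the Lamp3 change ranged from -0.98 without animal 2 (edgeR unadjusted p = 0.0138, adjusted p = 0.0669) to -0.08 without animal 1. Sftpa1 had a log2 change of 0.24 ± 0.26 and was higher in 4 of 5 animals. For Sftpb the log2 change was -0.45 ± 0.39, for Sftpc -0.35 ± 0.47, for Sftpd 0.09 ± 0.33 and for Lpcat1 -0.07 ± 0.25. The intervals reached down to a fold of 0.389 for Lamp3, 0.401 for Sftpc and 0.421 for Sftpb, so a fall of that size in S is not excluded for these 3 genes.

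The stretch effect in the presence of inhibitor was read from S_PI against NS_PI. Again none of the 7 genes was called by edgeR or DESeq2, and none had an unadjusted p below 0.05 in edgeR, beside 30.5% of all tested genes called. Lamp3 had a log2 change of -0.59 ± 0.35 (adjusted p = 0.203), Sftpb of -0.65 ± 0.44 (adjusted p = 0.281) and Sftpd of -0.52 ± 0.34 (adjusted p = 0.256). Without animal 1 these were -0.17 for Lamp3, -0.38 for Sftpb and -0.03 for Sftpd. Leaving out another animal gave up to -0.86 for Lamp3, -0.82 for Sftpb and -0.75 for Sftpd. Lpcat1 had -0.25 ± 0.24, Sftpc -0.18 ± 0.50, Sftpa1 -0.10 ± 0.26 and Napsa -0.06 ± 0.18. The median log2 change of the 7 genes was -0.07 in S against NS and -0.25 in S_PI against NS_PI, beside -0.01 and -0.02 over all tested genes.

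**Figure D3:**
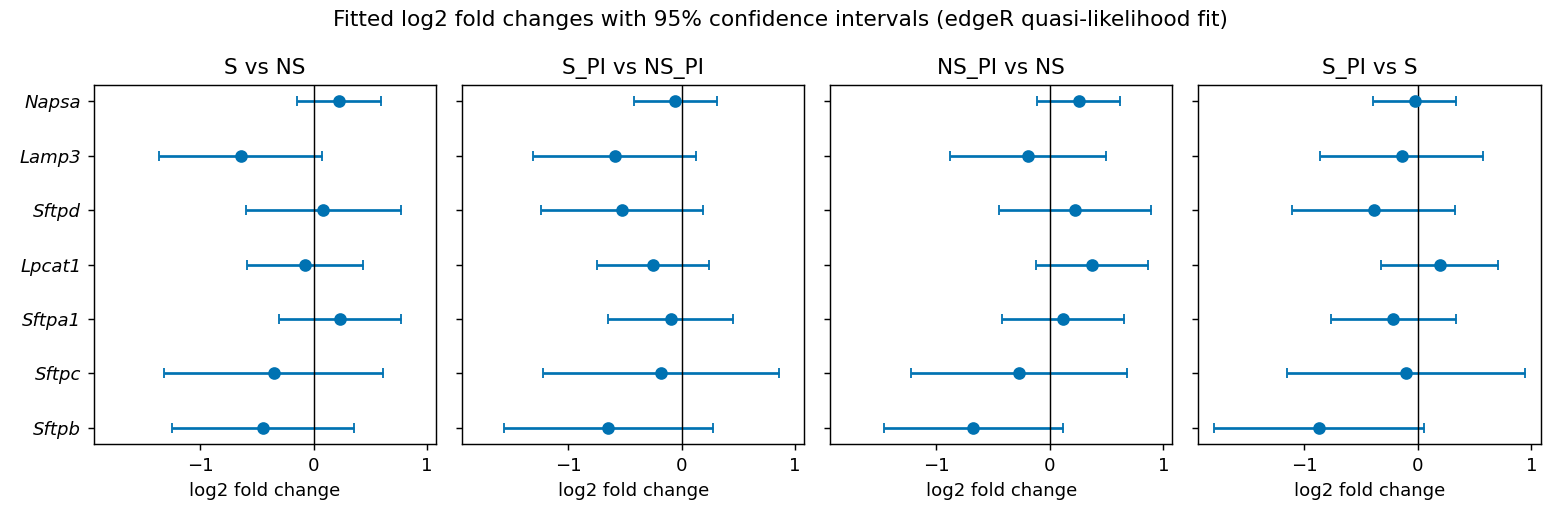
Fitted log2 fold changes (horizontal axis) with 95% confidence intervals for the 7 tested genes in the 4 contrasts named above the panels. Every interval includes 0, and those of Sftpc and Sftpb, the 2 lowest genes, are the widest.

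The average hides stretch effects that differed between animals. An F test of the 4 stretch-by-animal terms, added after the data had been seen and using an animal's pairs with and without inhibitor as its 2 stretch pairs, called 3 of the 7 genes, beside 15.7% of all tested genes. They were Lamp3 (adjusted p = 5.62e-07, range over the alternatives 9.57e-22 to 0.00512), Sftpc (0.00429, range 2.80e-06 to 0.0683) and Sftpd (0.00830, range 4.12e-08 to 0.685). Sftpd rested on animal 1, without which its adjusted p was 0.685, and Sftpc on animal 5, without which it was 0.0683. Lamp3 remained called without animal 1, at 0.00512. Sftpb (0.114), Napsa (0.131), Lpcat1 (0.337) and Sftpa1 (0.369) were not called, and Sftpb was called only without the count filter, at 0.0440 in a range of 0.0440 to 0.274.

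In animal 1, Lamp3 was 5.63-fold lower in S than in NS and 5.34-fold lower in S_PI than in NS_PI. In the other 4 animals the ratio of stretched to unstretched lay between 0.540 and 1.35, above 1 in animals 2 and 3 and below 1 in animals 4 and 5, in both inhibitor states. These 2 pairs of an animal come from separate monolayers of the same isolation. Sftpd in animal 1 was 1.84-fold lower in S than in NS and 8.08-fold lower in S_PI than in NS_PI, while in the other animals the ratio lay between 0.855 and 1.91. Sftpc in animal 5 had 0 counts in S against 14 in NS, at least 3.93-fold lower when the floor of 3 counts (1.92 CPM in that library) is used for S, and it had 1 count in S_PI against 11 in NS_PI. In animal 1 Sftpc was 1.78-fold lower in S than in NS and 1.73-fold lower in S_PI than in NS_PI. In animal 2 it was 1.18 times the NS level in S and 1.77 times the NS_PI level in S_PI. Animals 3 and 4 had at most 10 counts in every library.

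**Figure D4:**
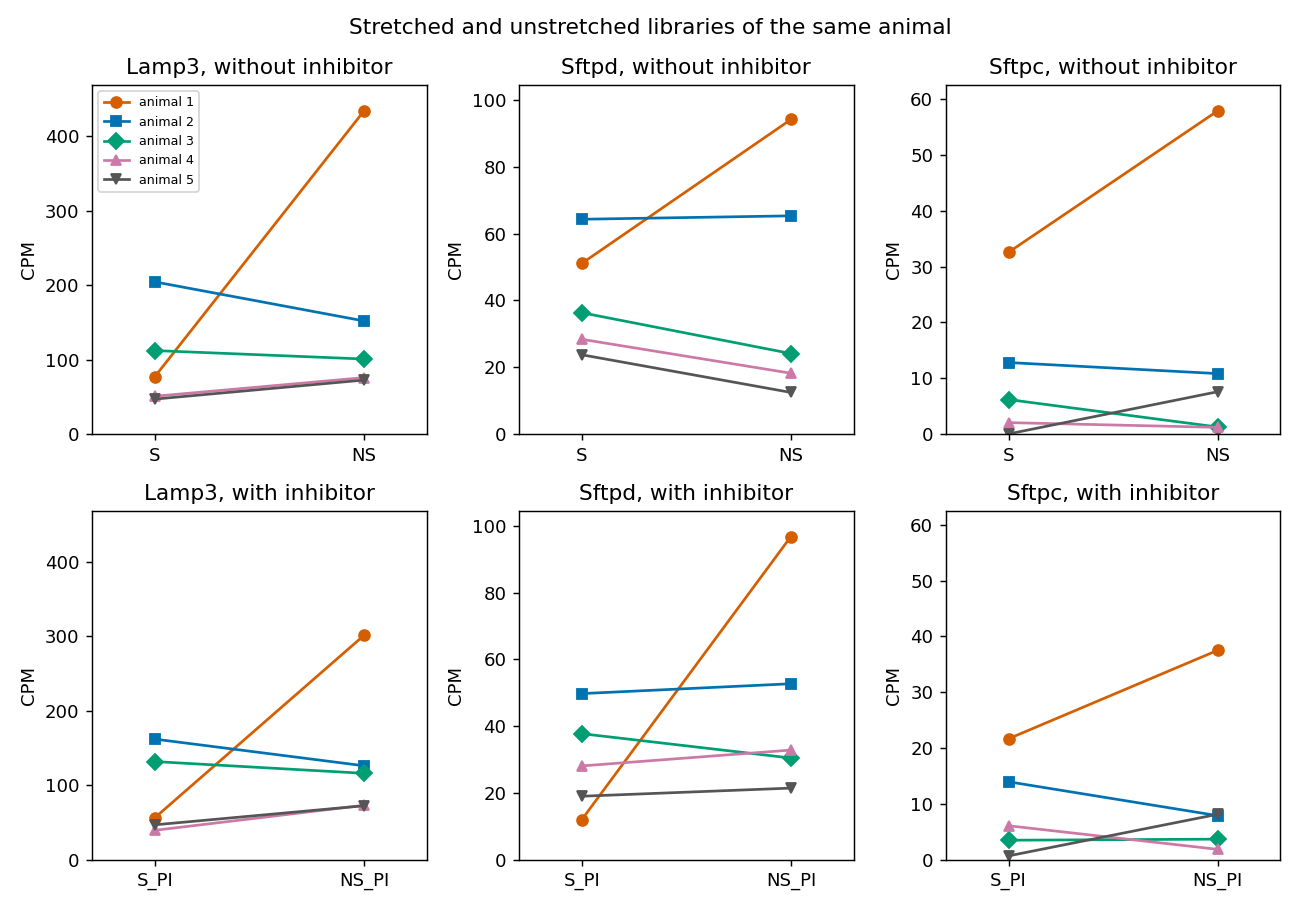
CPM (vertical axis, linear) of Lamp3, Sftpd and Sftpc in the stretched library (left) and the unstretched library (right) of each animal, joined by a line, without inhibitor in the upper row and with it in the lower row. The line of animal 1 is the steepest for Lamp3, at 77.1 against 434 CPM in the upper row and 56.5 against 302 CPM in the lower row.

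The stretch-by-animal test was read for the other lists too, beside 15.7% of all tested genes. It called 10 of 17 type I markers, 10 of 12 transitional cell markers, 9 of 20 other type II markers, 9 of 24 transcription factors and 3 of 8 fibroblast markers. It called 7 of 35 processing and traffic genes, 3 of 18 secretion and uptake genes, 5 of 35 lipid genes, 1 of 5 airway markers, 2 of 15 macrophage markers and 0 of 2 endothelial markers, shares of 0 to 20.0%. Among the named regulators it called Nkx2-1 (adjusted p = 0.000215), Foxa2 (0.00477) and Cebpa (0.0399), and it also called Ctsh (0.000707), the cathepsin that processes SP-B and SP-C precursors, and Ager (0.00112). In the 2 stretched libraries of animal 1 against its unstretched ones, the type I marker Emp2, a tetraspan membrane protein, had 94.1 CPM in S_PI against 527 CPM in NS_PI and 123 CPM in S against 566 CPM in NS. Emp2 is named here as the tested gene most like Lamp3 over these libraries (r = 0.94), so a shared pattern is built into that choice. The part of type I gene levels in the Lamp3 result was not tested.

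PERK inhibition was read in unstretched cells (NS_PI against NS) and in stretched cells (S_PI against S). In the edgeR fit of all 20 libraries, none of the 7 genes was called in either and none had an unadjusted p below 0.05. The background was 0% in both (454 and 340 of 8320 genes had an unadjusted p below 0.05). DESeq2 called 5 genes in NS_PI against NS and 0 in S_PI against S, none of them among the 7. The lowest p of the 7 was that of Sftpb in S_PI against S, with a log2 change of -0.87 ± 0.45, an unadjusted p of 0.0629 and an adjusted p of 0.998. DESeq2 gave an unadjusted p of 0.0253 for it. The fit of all libraries counts stretch effects that differ between animals as spread. With the compared groups alone, edgeR gave Sftpb an unadjusted p of 0.0340 in S_PI against S (adjusted p = 0.722). In NS_PI against NS it was 0.0291 (adjusted p = 0.368). Sftpd had 0.0382 in S_PI against S (log2 change -0.52 ± 0.23, adjusted p = 0.722) in that edgeR fit, and none of the 7 was called. Sftpb was lower in 5 of 5 animals in S_PI than in S, and in 4 of 5 in NS_PI than in NS, where the log2 change was -0.67 ± 0.38 (adjusted p = 0.922). These levels rest on 1 to 14 counts per library in S_PI and 5 to 30 counts in S. Lpcat1 had a log2 change of 0.37 ± 0.24 in NS_PI against NS and was higher in 4 of 5 animals, and Napsa had 0.25 ± 0.18. The others lay between -0.27 and 0.22 in NS_PI against NS and, Sftpb aside, all 6 lay between -0.39 and 0.19 in S_PI against S. The interaction, which subtracts the stretch effect in DMSO from that under inhibitor, was called for none of the 7 genes or of all tested genes by edgeR or DESeq2 (345 genes had an unadjusted p below 0.05 in edgeR, none of them among the 7). It was -0.61 ± 0.47 for Sftpd and between -0.33 and 0.17 for the others.

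Around the surfactant system, 2 larger lists of 35 tested genes were called at about the rate of genes at large. Of 35 tested genes for surfactant protein processing and lamellar body traffic, 3 rose and 6 fell in S against NS, beside 12.5% of all tested genes higher and 12.4% lower. With inhibitor, 1 rose and 7 fell, beside 15.2% and 15.3%. In all, 25.7% of the list was called in S against NS and 22.9% in S_PI against NS_PI, beside 24.9% and 30.5% of all tested genes. Scaling by library size only in place of TMM moved the balance over all genes towards lower calls, with 722 higher and 1422 lower in S against NS (1044 and 1030 with TMM) and 958 higher and 1677 lower in S_PI against NS_PI (1263 and 1275 with TMM). In this list it gave 1 higher and 8 lower in S against NS and left 1 and 7 in S_PI against NS_PI. Rab38, the small GTPase of lysosome-related organelles whose loss enlarges lamellar bodies in rats, fell by 1.48 ± 0.23 on the log2 scale in S against NS and by 1.36 ± 0.22 in S_PI against NS_PI. Rab27a, a GTPase of secretory granules, had -0.99 ± 0.21 in S against NS and -1.05 ± 0.20 in S_PI against NS_PI, both called. Ap3m1, a subunit of the AP-3 sorting adaptor, fell in S (-0.78 ± 0.20), and Rab3d, a GTPase of regulated secretion, fell in S_PI (-0.92 ± 0.20). Nedd4l, a ubiquitin ligase that acts on the SP-C precursor in mice, rose in S (0.91 ± 0.28) and in S_PI (1.01 ± 0.28), and the proton pump subunit Atp6v1b2 (0.60 ± 0.20) and the cathepsin Ctsl (0.58 ± 0.20) rose in S, both calls being lost with library size only. Ctsh fell in S_PI (-0.79 ± 0.26, adjusted p = 0.0254) and had -0.67 ± 0.26 in S (adjusted p = 0.0644). Pgc, pepsinogen C, was at 0 in all libraries. The difference of these effects between inhibitor states was called for no gene. Here and in the lists below, at most 3 called genes per direction were named in each contrast. A gene named in 1 contrast may therefore also be called in the other. The median log2 change of the 35 was 0.06 in S against NS and -0.07 in S_PI against NS_PI.

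Of 35 tested lipid synthesis genes, 6 rose and 3 fell in S against NS, and 5 rose and 5 fell in S_PI against NS_PI, which is 25.7% and 28.6% of the list beside 24.9% and 30.5% of all tested genes. With library size only, 3 rose and 5 fell in S against NS and 4 rose and 5 fell in S_PI against NS_PI. Abcg1, a sterol exporter, rose by 0.93 ± 0.16 in S and 0.94 ± 0.16 in S_PI on the log2 scale. Mfsd2a, a lysophospholipid importer, rose in S (1.11 ± 0.33), as did Cds1, which makes CDP-diacylglycerol (0.96 ± 0.31). Acyl-CoA synthetases went both ways: Acsl3 (0.87 ± 0.14) and Acsl4 (0.63 ± 0.13) rose in S_PI, while Acsl5 fell in S (-0.57 ± 0.12) and in S_PI (-0.57 ± 0.12). Scd2, a stearoyl-CoA desaturase, had -0.49 ± 0.13 in S and -0.52 ± 0.13 in S_PI, and Srebf2, which drives sterol synthesis genes, had -0.47 ± 0.16 and -0.62 ± 0.16, all 4 called. Pcyt1a, the rate-limiting enzyme of phosphatidylcholine synthesis, had 0.43 ± 0.20 in S (adjusted p = 0.120) and 0.47 ± 0.21 in S_PI (0.0927). Fasn, fatty acid synthase, had 0.10 ± 0.16 and -0.02 ± 0.16, and Scd was not analysed here. Of 18 tested secretion and uptake genes, 3 rose and 2 fell in S against NS, and 1 rose and 1 fell in S_PI against NS_PI, or 27.8% and 11.1% of the list. With library size only, 3 rose and 4 fell in S against NS and 1 rose and 2 fell in S_PI against NS_PI. Ctsz, a lysosomal protease, rose in S (0.61 ± 0.14) and S_PI (0.50 ± 0.14), Csf2ra, a receptor chain for the cytokine GM-CSF needed in surfactant clearance, rose in S (0.70 ± 0.21), and Anxa7, which promotes lamellar body fusion, fell in S (-0.40 ± 0.12). Ctsz and Csf2ra are also expressed by macrophages. Of 15 tested macrophage markers, 7 rose in S against NS and 10 rose in S_PI against NS_PI, and none fell in either, which is 46.7% and 66.7% of the list. With library size only these were 6 and 8. The part of these cells was not tested.

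Among 24 tested transcription factors of type II genes, 8 rose and 4 fell in S against NS, and 3 rose and 5 fell in S_PI against NS_PI, which is 50% and 33.3% of the list beside 24.9% and 30.5% of all tested genes. With library size only, 4 rose and 4 fell in S against NS and 3 rose and 6 fell in S_PI against NS_PI. Nkx2-1 was not called, with -0.10 ± 0.30 in S (adjusted p = 0.843) and -0.43 ± 0.30 in S_PI (0.291), nor was Foxa2, with -0.25 ± 0.28 (0.537) and -0.53 ± 0.28 (0.164). Nr3c1, the glucocorticoid receptor, rose in S (0.77 ± 0.16) and S_PI (1.04 ± 0.16), and Cebpa rose in both (0.87 ± 0.15 and 0.57 ± 0.15). Cebpd, a C/EBP factor induced by glucocorticoid in lung epithelium, fell in both (-2.13 ± 0.16 and -2.20 ± 0.17), as did the Notch target Hes1 (-1.06 ± 0.17 and -1.44 ± 0.17). Klf5 rose in S (0.87 ± 0.30), a call lost with library size only, Id2 rose in S_PI (0.69 ± 0.20), Tfcp2l1 fell in S (-1.38 ± 0.33) and Elf3 fell in S_PI (-1.56 ± 0.17). These 4 are named by their rank within a contrast, not for a difference between inhibitor states. Cebpa averaged 49.1, 101, 116, 143 and 73.3 CPM in animals 1 to 5. By summed macrophage markers the animals stood in the same order (2356, 8572, 9695, 13239 and 4833 CPM). The part of macrophages in the rise of Cebpa was not tested. Of 20 tested type II markers outside the members, 5 rose and 2 fell in S against NS, and 3 rose and 5 fell in S_PI against NS_PI (35.0% and 40.0% of the list), among them Cldn18, an alveolar tight junction claudin, which fell in both (-0.92 ± 0.26 and -1.25 ± 0.27). Of 17 tested type I markers, 1 rose and 5 fell in S against NS, and 2 rose and 8 fell in S_PI against NS_PI, which is 35.3% and 58.8% of the list. With library size only the type II markers had 4 higher and 3 lower in S against NS and 2 higher and 5 lower in S_PI against NS_PI, and the type I markers 1 and 6, and 1 and 10. Ager fell in S_PI (-1.11 ± 0.30) and had -0.57 ± 0.30 in S (adjusted p = 0.169). Pdpn fell in S_PI (-0.47 ± 0.17) and had -0.42 ± 0.17 in S (0.0769).

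Of the members, the 4 surfactant protein genes and Lamp3 were the most alike in their pattern over the 20 libraries. Likeness was measured by Pearson's r of log2 CPM. The libraries share animals, so r mostly follows the order of 5 animals and is given as a description. The 4 surfactant protein genes and Lamp3 had r of 0.57 to 0.81 with each other, the highest being that of Sftpd with Lamp3. Napsa and Lpcat1 had 0.51 with each other. Between the sets r lay from -0.55, for Sftpc with Lpcat1, to 0.33, for Sftpd with Napsa.

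**Figure D5:**
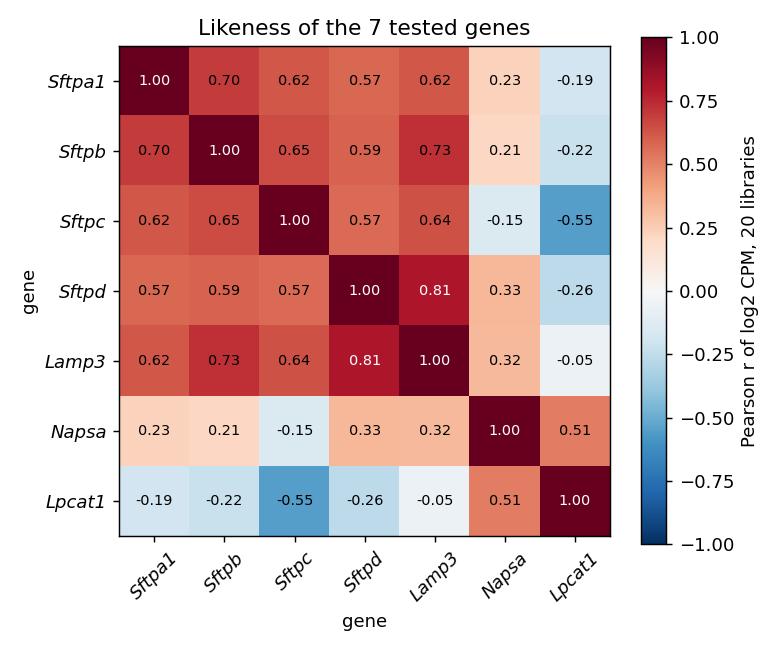
Pearson's r of log2 CPM over 20 libraries for each pair of the 7 tested genes (both axes list the genes, colour and number give r). The 4 surfactant protein genes and Lamp3 form a block of 0.57 to 0.81, and Lpcat1 has negative values with all 5 of them.

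No member was among the 3 tested genes most like another member. The nearest member stood at rank 7 of 8319 for Sftpd (Lamp3), 42 for Sftpa1 (Sftpb) and 47 for Sftpb (Lamp3). It stood at 93 for Lamp3 (Sftpd) and 156 for Sftpc (Sftpb). Napsa and Lpcat1 were nearest each other, at 1089 for Napsa and 976 for Lpcat1. For Lamp3 the 3 genes most like it were Emp2 (r = 0.94) and Gprc5a (0.93), both in the type I list, and Bex1 (0.93). For Sftpd they were Eps8l2 (0.85), Bex1 (0.83) and Mitf (0.82), for Sftpc Pdlim3 (0.84), Sema5a (0.83) and Anxa6 (0.83), and for Sftpb Fhl1 (0.86), Tm4sf1 (0.85) and Olfml2a (0.85). Those nearest Sftpa1 were Gsn (0.81), Cobl (0.80) and Lrrc73 (0.80). Napsa was most like Hexa (0.92), a lysosomal hexosaminidase subunit, Adra2a (0.89) and RGD1564664 (0.89), and Lpcat1 most like Cklf (0.89), Itm2c (0.88) and R3hdml (0.87). Emp2, Gprc5a and Bex1 were picked for following Lamp3 over these libraries, so their pattern is given as a description. The mean stretch change of log2(CPM + 1) over both inhibitor states was -2.33 for Emp2, -1.68 for Gprc5a and -2.60 for Bex1 in animal 1. In the other animals it lay between -1.17 and -0.16 for Emp2, -0.89 and 0.46 for Gprc5a, and -0.93 and 0.27 for Bex1.

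The authors' deposited table of a comparison that controls for animal lists 7 of the genes, under the identifiers ENSRNOG00000022792 for Lamp3, ENSRNOG00000017930 for Lpcat1, ENSRNOG00000019854 for Napsa, ENSRNOG00000011438 for Sftpa1, ENSRNOG00000010761 for Sftpb, ENSRNOG00000011177 for Sftpc and ENSRNOG00000004626 for Slc34a2. Its header names neither the groups compared nor the direction of its log2 values, so it is not matched to any contrast here. In the authors' deposited table no adjusted p of these genes was below 0.05, the lowest being that of Lamp3 (0.245, log2 value 0.49 ± 0.27), and that of Slc34a2 was missing. No entry for Sftpd was used here.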

How the data were processed

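RNA from 20 libraries was read from the 3′ end with QuantSeq, 75 bp single reads, per the labels' protocols. The authors aligned with STAR, counted with HTSeq on rn6 and used DESeq2, per the submitters' processing notes; no versions are given in the sources used here. They deposited raw counts per gene symbol, not normalized. The authors' deposited DESeq2 table holds, per the file headers, a mean of normalized counts (a signal), a log2 fold change with its error, a Wald statistic (a score), and both raw and adjusted p-value; it was only quoted.

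From the counts, edgeR 4.0.16 in R 4.3.3 filtered genes with filterByExpr on the groups (minimum count 10), leaving 8320, scaled them by TMM and fitted group and animal (as a block) to all 20 libraries (12 residual degrees of freedom). Quasi-likelihood F tests were adjusted by Benjamini-Hochberg over all genes and called below 0.05. The fit pools stretch effects that differ between animals with residual spread. The stretch-by-animal test was added after seeing the data. Variance shares used log2 CPM with a prior count of 2; the pseudocount elsewhere was 1 CPM. The animal block takes the replicate number of the titles as the animal. Libraries with the same number in different groups had r of 0.316 to 0.788 (median 0.476, 30 pairs). Libraries with different numbers had -0.525 to 0.476 (median -0.17, 120 pairs), so the ranges overlap. RefSeq tables (GRCr8) gave promoters. DESeq2 1.42.0 was an alternative. Scripts were tested on simulated data. The members and all lists were chosen with earlier results of these data known. Named list genes were at most 3 called per direction with the largest change and at least 10 CPM, plus 10 fixed names; Emp2, Gprc5a and Bex1 were described further as the genes most like Lamp3. The labels name no sequencing batch.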

Additional observations from a re-analysis of the deposited data

Results flagged for a closer look

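Lamp3 and Sftpc had a library that stood apart from the other 4 of its group. Lamp3 in animal 1 was at 301.6 CPM in NS_PI, where the others ranged from 72.5 to 126 CPM, and at 434.3 CPM in NS, where they ranged from 72.4 to 152 CPM. Sftpc in animal 1 was at 37.52 CPM in NS_PI, with the others at 1.85 to 8.13 CPM, and at 57.91 CPM in NS, with the others at 1.17 to 10.8 CPM. Of 28 groups of 5 libraries examined, 4 held such a library, and the rule picks about 1 in 20 groups by chance. All 4 come from animal 1 and from 2 genes whose levels follow each other (r = 0.64), so they are not separate events.

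The stretch effect differed between animals for Lamp3 (adjusted p = 5.615e-07), Sftpc (0.004288) and Sftpd (0.008301) in the edgeR test of the stretch-by-animal terms, in a design with 5 animals.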

How the results depend on the processing

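None of the 7 tested genes was called in S against NS, S_PI against NS_PI, NS_PI against NS, S_PI against S or the interaction under any alternative run. These were no animal block, RLE scaling, library size only, no filter, DESeq2, each animal left out and, except for the interaction, the compared groups alone. Without the replicate block the count of called members was 0 in all 5, and the block changed no call among them. The difference between animals was called for 6 to 7 genes, and stretch by animal for 2 to 4. Of 378 log2 changes of single genes under the alternatives, 21 changed sign, none of them called, and the cause was not tested. In S against NS, Sftpd was -0.064 without the block and -0.040 with library size only; in S_PI against NS_PI, Napsa was 0.040 without the block; in S_PI against S, Sftpc was 0.11 with DESeq2. With 1 animal left out, S against NS ranged from -0.60 to 0.028 for Sftpc, -0.051 to 0.43 for Sftpd and -0.26 to 0.045 for Lpcat1. S_PI against NS_PI ranged from -0.38 to 0.065 for Sftpa1, -0.58 to 0.18 for Sftpc and -0.19 to 0.19 for Napsa. NS_PI against NS ranged from -0.40 to 0.0050 for Sftpc. S_PI against S ranged from -0.33 to 0.15 for Sftpc and -0.10 to 0.072 for Napsa, and the interaction from -0.020 to 0.42 for Sftpc and -0.086 to 0.12 for Lamp3. Over all genes, calls in S against NS numbered 2074 with the block, 818 without it and 1152 with the compared groups alone, and in S_PI against NS_PI 2538 with it and 1228 without it. Calls in NS_PI against NS numbered 0 with edgeR on all libraries, 4 with no filter, 6 without animal 1, 5 with DESeq2 and 31 with the compared groups alone. Those between animals numbered 3947 and were 2231 without animal 1, and those of stretch by animal numbered 1303 and were 736 without animal 1 and 538 without animal 2. Library size only shifted the median log2 change of all genes by -0.11 in S against NS and -0.10 in S_PI against NS_PI. Slc34a2, Sftpb and Sftpc were limited by depth, with 38, 285 and 477 counts over all libraries.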
